A study of Mus musculus with 6 samples.

Results

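Nrl, Nr2e3, Crx, Otx2 and Rorb encode transcription factors of photoreceptors, and Prph2, Rom1, Abca4 and Rp1 encode proteins of the photoreceptor outer segment. These 9 genes were chosen by name, as the rows that carry their symbols, out of 25935 genes with an Ensembl transcript in all 6 files, of which 25202 had a value above 0. RNA-seq was performed on retinal cells of wild-type C57BL/6 mice (C57BL/6J in the study's methods), with 3 libraries of the NMDA + PBS group (the PBS libraries) and 3 of the NMDA + SCF group (the SCF libraries), whose values are given in the order of replicates 1, 2 and 3. Both groups received NMDA, a glutamate receptor agonist that damages retinal ganglion cells, into the vitreous, and both received a further injection 2 days later, of PBS in the controls and of stem cell factor (SCF, the ligand of the receptor c-kit) in the other group. Retinas were taken 1 week after that injection. The labels give an age of 5 weeks and the study's methods give 4 weeks at assignment to groups. There was no uninjured group among these libraries, so each comparison is of SCF with PBS in damaged retina. The number of mice behind each library is not given in the sources used here, so p-values measure the spread between libraries, which may be technical.

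Photoreceptor precursors are specified by OTX2, a homeodomain factor, and mature under its relative CRX, which activates genes of both rods and cones. The basic leucine zipper factor NRL directs precursors to the rod fate, and the orphan nuclear receptor NR2E3 acts downstream of it and represses cone genes. RORB, another nuclear receptor, lies upstream of NRL in the same pathway. In the rod outer segment, the tetraspanins PRPH2 and ROM1 form complexes at the rims of the discs and hold their curvature, ABCA4 transports retinoids across the disc membrane, and RP1 is bound to the microtubules of the axoneme and aligns the discs. Loss of function of several of these genes causes retinal degeneration in humans.

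The start regions of 8 of the 9 genes were found in RefSeq (GRCm38.p6), with 12 start regions in all because Otx2 has 4 and Rorb has 2. Each holds 250 bases before the annotated start and 50 after it. They were searched on both strands for the core of the element bound by CRX and OTX2, TAATCC, which reads GGATTA on the other strand and was present in 7.06% of all 32851 mouse start regions of this length. It occurred in 3 of the 12 start regions, each of another gene. There were 2 matches in Crx, beginning 94 and 21 bases before the start, and 1 in Abca4, beginning 58 bases before it. The last was in 1 of the 4 start regions of Otx2, beginning 211 bases before it. A motif of NRL, TGCTGAC, which reads GTCAGCA on the other strand, was present in 4.67% of all start regions and in 1 start region of Rorb. AAGTCA, a motif of NR2E3, and AGGTCA, a motif of ROR receptors, were present in 15.1% and 16.3% of all start regions and in none of the 12. A match or its absence describes these letters in this window only. The start regions of Crx and Nrl are shown because these genes had the smallest p-values among the members, in opposite directions, and that of Abca4 because it holds the CRX and OTX2 core. All are written 5′ to 3′ on the gene's strand, with that core in capitals.
Crx, chr7:15879906-15880205, minus strand: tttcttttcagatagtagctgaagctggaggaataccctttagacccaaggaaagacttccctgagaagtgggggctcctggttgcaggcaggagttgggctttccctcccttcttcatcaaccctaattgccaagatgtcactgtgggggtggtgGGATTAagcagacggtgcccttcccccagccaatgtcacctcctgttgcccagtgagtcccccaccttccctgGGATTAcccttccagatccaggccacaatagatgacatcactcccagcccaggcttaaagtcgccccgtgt
Nrl, chr14:55524203-55524502, minus strand: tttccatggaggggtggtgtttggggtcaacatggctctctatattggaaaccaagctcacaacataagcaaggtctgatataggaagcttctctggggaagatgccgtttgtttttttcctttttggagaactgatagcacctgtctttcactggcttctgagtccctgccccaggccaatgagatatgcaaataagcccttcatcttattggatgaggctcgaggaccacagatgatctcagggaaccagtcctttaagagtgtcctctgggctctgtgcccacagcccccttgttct
Abca4, chr3:122044210-122044509, plus strand: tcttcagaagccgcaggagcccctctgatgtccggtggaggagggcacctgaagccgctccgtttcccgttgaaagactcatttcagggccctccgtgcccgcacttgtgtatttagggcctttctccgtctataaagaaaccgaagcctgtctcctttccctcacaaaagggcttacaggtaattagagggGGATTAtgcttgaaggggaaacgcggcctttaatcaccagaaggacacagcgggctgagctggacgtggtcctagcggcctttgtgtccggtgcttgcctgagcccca

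Several facts of the libraries bear on the members. The deposited values are FPKM (fragment counts divided by transcript length and by library size) for single transcripts, and they were summed per gene. The files follow 2 transcript lists. PBS replicate 1 and the SCF libraries share list A, and PBS replicates 2 and 3 share list B, so the list and the group cannot be fully told apart. Of the 33 listed transcripts of the 9 genes, 21 were in both lists and enter the sums, list A alone held 3 and list B alone 9. A further 21 annotated transcripts of these genes (GENCODE M21) were in neither. Counted fragments, recovered from the values, numbered between 3404334 and 4440582 per library, from 44925938 to 48783182 clean reads. Mitochondrial genes took between 13.7 and 20.1% of the FPKM sum in the PBS libraries and between 9.93 and 10.4% in the SCF libraries. Among the 4508 genes with a mean of at least 10 FPKM the median log2 fold change was 0.22, and 0.01 after mitochondrial genes were removed and the rest rescaled.

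On FPKM, which is scaled to transcript length, the members spanned a wide range of levels. Rom1 had the highest mean over the 6 libraries, 3868 FPKM, which placed it 8th among all genes. Rp1 followed at 1163 FPKM (27th), then Abca4 at 323 (122nd), Prph2 at 298 (136th) and Nrl at 127 (390th). Crx at 14.8 FPKM (3354th), Otx2 at 8.26 (5129th), Nr2e3 at 4.36 (7593rd) and Rorb at 0.265 (19367th) were far lower. Each gene exceeded the next in that order in all 6 libraries, except that Abca4 exceeded Prph2 in 4 and Otx2 exceeded Nr2e3 in 4. The ranges of Crx and Otx2 over libraries also overlapped, from 9.11 FPKM for the lowest Crx to 12.3 for the highest Otx2. These levels, ranks and this order are of the transcripts in both lists only. With all listed transcripts, Otx2 was at 107 and 108 FPKM in PBS replicates 2 and 3, above Crx at 18.6 and 19.96 there. The retinal origin of the samples was checked with Pde6b, a catalytic subunit of the rod phosphodiesterase, which was between 267 and 414 FPKM in all 6 libraries.

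**Figure D1:**
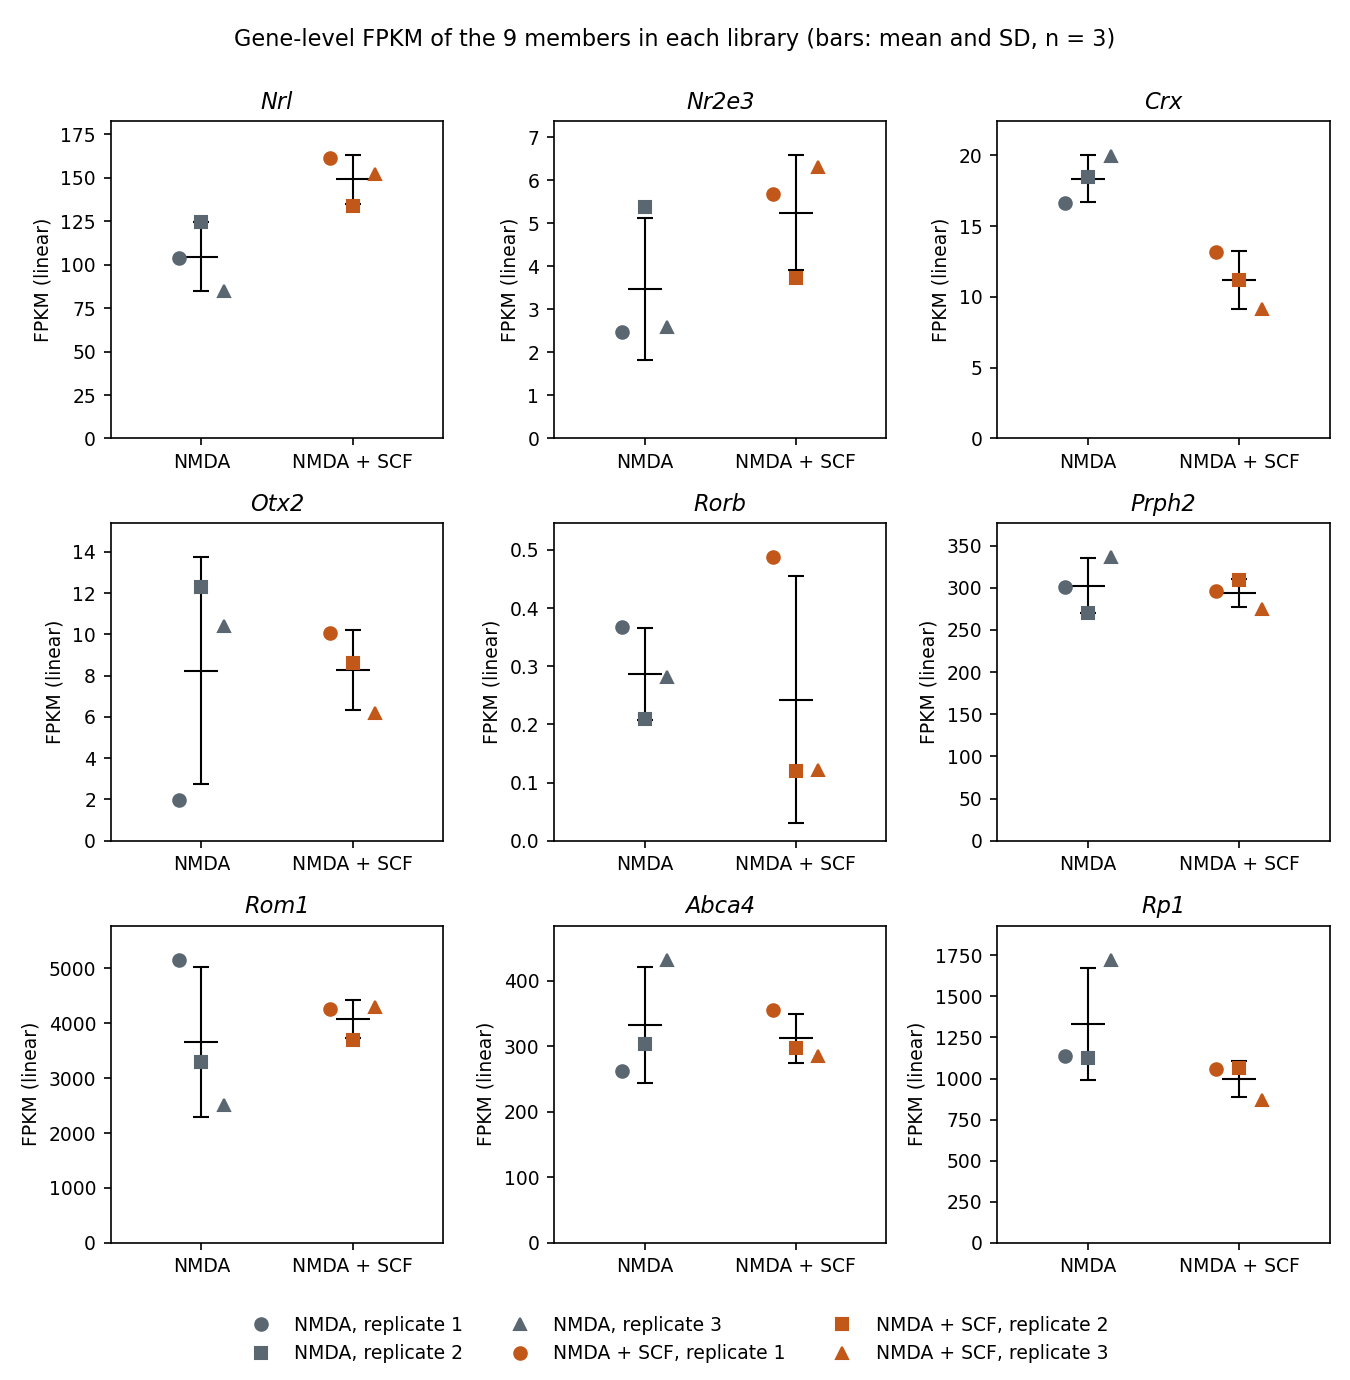
FPKM summed per gene (linear axes from 0) for the 9 genes in NMDA + PBS (labelled NMDA, grey) and NMDA + SCF (orange), 1 point per library, with the mean and SD of 3 libraries as black bars. The groups do not overlap for Nrl (SCF above) and for Crx and Rp1 (SCF below), and they overlap for the other 6 genes.

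To find whether SCF altered these genes, the 3 SCF libraries were compared with the 3 PBS libraries by limma on log2(FPKM + 1) across all 25202 genes. Nrl was higher and Crx was lower in NMDA + SCF, each without overlap of the groups, and neither passed the adjusted threshold. None of the 9 genes reached a change of 2-fold or more with an adjusted p of at most 0.001, and 0% of all genes tested did. These thresholds are the study's own, and by them it reports differentially expressed genes in both directions. The limma fit on the deposited FPKM did not return those calls, and the reason was not tested. No gene passed an adjusted p of 0.05 in limma either, 2324 genes were at an unadjusted p of at most 0.05, and limma's voom on the recovered fragments put 2 genes past an adjusted p of 0.05 and called 0 at the study's thresholds. Of the 9 genes, 1 was higher at that unadjusted p (Nrl), beside 4.33% of all genes, and 1 was lower (Crx), beside 4.9%. The groups did not overlap for 1 gene with SCF above (7.63% of all genes) and for 2 with SCF below (6.45%). Of the 9 log2 fold changes 4 were above 0 and 5 below, with a median of -0.04. The median was -0.01 for all genes and 0.22 for those with a mean of at least 10 FPKM. The 5 transcription factors had a median of 0.25 and the 4 outer segment genes one of -0.05.

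Nrl, the factor of the rod fate, was measured at 104, 125 and 85.0 FPKM in the PBS libraries, and at 161, 134 and 152 FPKM in the SCF libraries. All SCF libraries lay above all PBS libraries, with the gap narrowest between PBS replicate 2 and SCF replicate 2. The means were 105 ± 19.8 and 149 ± 14.0 FPKM (SD, n = 3), a ratio of 1.43, and the log2 fold change was 0.52 with a standard error of 0.20 (limma, unadjusted p = 0.0321, adjusted p = 0.536). Against PBS replicate 1 alone, which shares its transcript list with the SCF libraries, the ratio was also 1.43, and against replicates 2 and 3 it was 1.42. The fold change was above 0 in all 15 alternative analyses, from 0.31 to 0.65, with unadjusted p between 0.00797 and 0.124 in the 14 that gave one, 7 of them at most 0.05. Leaving out PBS replicate 3 gave 0.38 (unadjusted p = 0.0597), SCF replicate 1 gave 0.46 (unadjusted p = 0.105) and SCF replicate 3 gave 0.50 (unadjusted p = 0.0917). It was 0.31 (unadjusted p = 0.124) after removal of the mitochondrial genes, whose share also differed between the groups, and the part of that share in the result was not tested.

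The Nrl value rested on a single transcript. Nrl-206 (chr14:55519520-55524492, minus strand, GRCm38), which GENCODE classes as a retained intron, is 1 exon of 4973 bases that runs through the gene without splicing. It held between 1760 and 2747 fragments per library. The protein-coding Nrl-201 was in list B only, where it received 0 and 1 fragments, and the other 5 annotated transcripts of Nrl were in neither list. Whether the fragments counted for Nrl-206 came from spliced or unspliced RNA cannot be read from these values. Most of the Nrl start region printed above lies inside Nrl-206, which begins upstream of the annotated start of that region.

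Nr2e3, which represses cone genes in rods, was at 2.47, 5.39 and 2.58 FPKM in the PBS libraries and at 5.69, 3.74 and 6.30 FPKM in the SCF libraries. The highest value was in SCF replicate 3, and PBS replicate 2 lay above SCF replicate 2, so the groups overlapped. The log2 fold change was 0.51 (95% interval -0.29 to 1.32, limma unadjusted p = 0.175), close in size to that of Nrl with a wider interval. The value again came from a transcript classed as a retained intron, Nr2e3-203, with between 22 and 57 fragments per library. The protein-coding Nr2e3-201 was in list A only and was listed at 0 in all 4 libraries of that list. The ratio of Nrl to Nr2e3 within a library ranged from 23.1 to 42.1 in NMDA + PBS and from 24.1 to 35.8 in NMDA + SCF, and the log2 ratio differed by -0.13 (exact permutation test, two-sided p = 0.8, adjusted p = 0.8 over 3 ratios), where the smallest p that 3 against 3 libraries allow is 0.1.

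Crx, which activates rod and cone genes, was at 16.6, 18.5 and 19.96 FPKM in the PBS libraries, and at 13.2, 11.2 and 9.11 FPKM in the SCF libraries. All SCF libraries lay below all PBS libraries. The means were 18.3 ± 1.67 and 11.2 ± 2.04 FPKM (SD, n = 3), a ratio of 0.609, with a log2 fold change of -0.68 and a standard error of 0.20 (limma, unadjusted p = 0.012, adjusted p = 0.536). The ratio was 0.672 against PBS replicate 1 and 0.581 against replicates 2 and 3. Depth was modest, with between 64 and 123 fragments per library. The fold change was below 0 in all 16 alternatives, from -0.89 to -0.35, with unadjusted p between 0.00584 and 0.188 in 15, 13 of them at most 0.05. Without SCF replicate 3 it was -0.55 (unadjusted p = 0.0543). The weakest was voom on recovered fragments, which counts fragments without regard to transcript length and gave -0.35 (unadjusted p = 0.188).

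The lower Crx value lay in the shorter of its 2 summed transcripts. Crx-202 (chr7:15868056-15871402, minus strand), a protein-coding transcript of 783 bases and 3 exons, was at 11.6, 10.6 and 15.0 FPKM in NMDA + PBS and at 7.83, 4.404 and 3.69 in NMDA + SCF, from 31, 33 and 52 and from 21, 12 and 10 fragments. The groups did not overlap. Its log2 fold change was -1.13 with a standard error of 0.30 (limma over 45261 transcripts, unadjusted p = 0.00594, adjusted p = 0.591). The longer coding transcript Crx-204 (2880 bases) was at 5.00, 7.86 and 5.00 FPKM in NMDA + PBS and at 5.37, 6.78 and 5.42 in NMDA + SCF, with overlapping groups and a log2 fold change of -0.00074 with a standard error of 0.26 (unadjusted p = 0.998). Crx-202 has 126 bases that no other listed Crx transcript holds, and a fragment in its other bases could belong to either transcript. The start region printed above lies at the start of Crx-201, which was in list B only and received 2 and 0 fragments there.

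Otx2, the homeodomain factor that acts before CRX, was at 1.99, 12.3 and 10.4 FPKM in the PBS libraries and at 10.04, 8.60 and 6.19 FPKM in the SCF libraries. PBS replicate 1 stood far below the other 5 libraries, which overlapped, and it rested on 5 fragments. The log2 fold change was 0.25 with a 95% interval from -1.06 to 1.56 (limma unadjusted p = 0.67). Its direction depended on the libraries and transcripts used, being -0.43 without PBS replicate 1 and -1.84 when every listed transcript was summed. The latter sum was 107 and 108 FPKM in PBS replicates 2 and 3 and unchanged in the other 4 libraries, because 5 further Otx2 transcripts, 4 of them with 15 or more fragments in both libraries, were in list B only. The most abundant of these, the retained intron Otx2-211, was at 53.4 and 55.4 FPKM, and the coding Otx2-203 at 34.6 and 34.9 FPKM. In the shared sum nearly all came from Otx2-206, a processed transcript, at between 1.99 and 11.9 FPKM.

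The ratio of Crx to Otx2 carried this uncertainty. It was 8.34, 1.5 and 1.91 in the PBS libraries and 1.31, 1.30 and 1.47 in the SCF libraries, so all SCF libraries lay below all PBS libraries. The log2 ratio differed by -1.08 (exact permutation test, two-sided p = 0.1, the smallest this design allows, adjusted p = 0.3 over 3 ratios). Without PBS replicate 1, whose Otx2 value rested on 5 fragments, the difference was -0.32. With all listed transcripts the difference was 1.08 in the opposite direction (exact permutation test, p = 0.4).

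Rorb was at the limit of what was counted, with 0.368, 0.210 and 0.282 FPKM in NMDA + PBS and 0.487, 0.120 and 0.121 in NMDA + SCF. These values stood for 8 fragments over the 3 PBS libraries and 6 over the 3 SCF libraries, all from the retained intron Rorb-205, and a difference was not detectable at this depth. The protein-coding Rorb-203 was in list B only, at 1.46 and 2.16 FPKM with 54 and 89 fragments in PBS replicates 2 and 3, and no library of list A has a value for it.

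**Figure D2:**
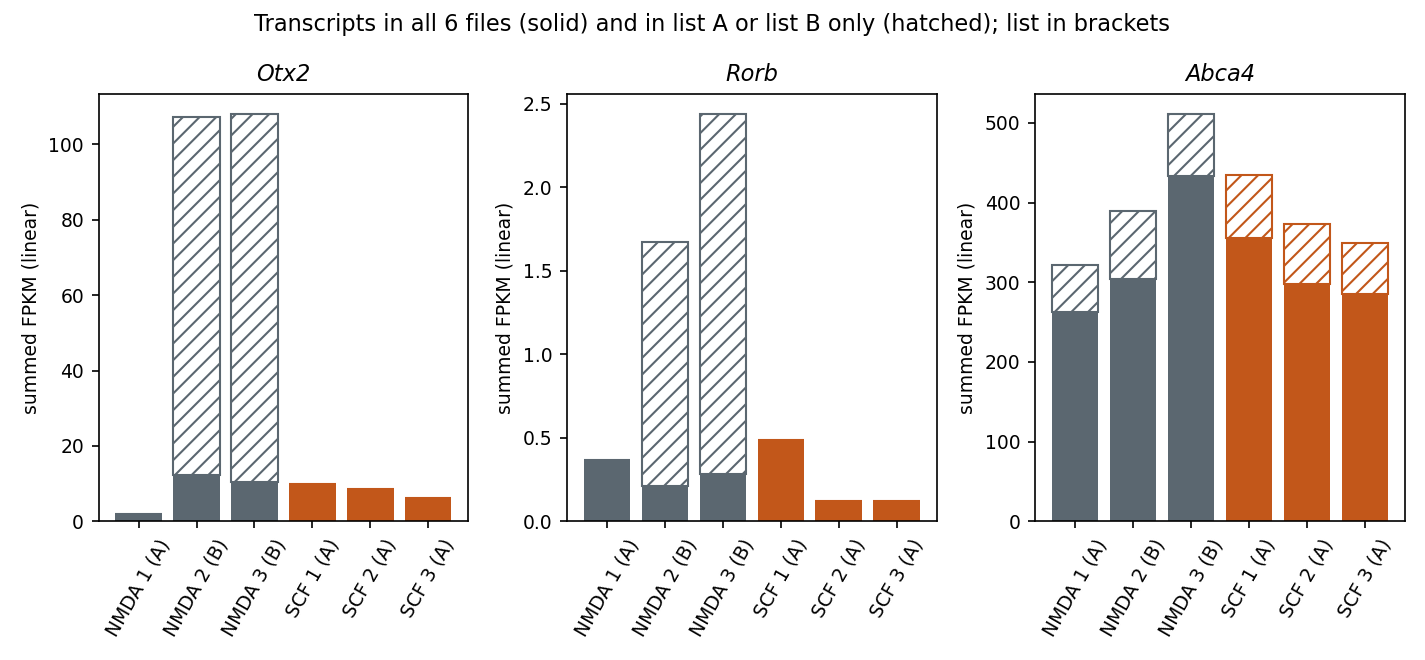
Summed FPKM (linear axes from 0) of Otx2, Rorb and Abca4 in each library, with the transcript list in brackets; solid bars are transcripts in all 6 files and hatched bars those in list A or list B only. For Otx2 the hatched part raises PBS replicates 2 and 3 to 107 and 108 FPKM and is absent from the other 4 libraries, and for Abca4 every library has a hatched part, from different transcripts in the 2 lists.

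The outer segment genes differed less between the groups than between libraries of the NMDA + PBS group. Prph2, the rim tetraspanin also called peripherin 2, was at 301, 271 and 336 FPKM in the PBS libraries and at 297, 309 and 275 FPKM in the SCF libraries. The groups overlapped, and the lowest and the highest library both belonged to NMDA + PBS. The log2 fold change of the sum was -0.04 (95% interval -0.46 to 0.38, limma unadjusted p = 0.832), which leaves room for a change of that size in either direction.

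Beneath this level sum, the 2 Prph2 transcripts differed strongly between libraries. The coding transcript Prph2-201 was at 130, 62.3 and 17.3 FPKM in the PBS libraries and at 118, 144 and 127 in the SCF libraries. The retained intron Prph2-202 was at 171, 208 and 319 FPKM in NMDA + PBS and at 178, 165 and 148 in NMDA + SCF. PBS replicate 1 sat with the SCF libraries in both, and replicates 2 and 3 had less of the coding and more of the intron-bearing form. The ratio of Prph2-201 to Prph2-202 was 0.759, 0.299 and 0.0543 in NMDA + PBS and 0.663, 0.871 and 0.859 in NMDA + SCF. The log2 fold changes were 1.29 with a standard error of 0.62 for Prph2-201 (limma over all transcripts, unadjusted p = 0.0739) and -0.46 with one of 0.26 for Prph2-202 (unadjusted p = 0.112). Counted from coding transcripts only, the gene's fold change would thus be 1.29 in place of -0.04. The forms part after the second exon, where Prph2-202 reads on for 337 bases into the intron. The edge is shown from the GENCODE M21 transcript, with the last 40 exon bases in lower case and the first 60 intron bases, present in Prph2-202 and spliced out of Prph2-201, in capitals.
Prph2, chr17:46919971-46920070, plus strand: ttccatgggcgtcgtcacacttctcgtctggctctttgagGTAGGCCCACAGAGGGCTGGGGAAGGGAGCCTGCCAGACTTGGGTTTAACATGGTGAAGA

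Rom1, the tetraspanin partner of PRPH2, was at 5159, 3300 and 2509 FPKM in the PBS libraries and at 4265, 3686 and 4287 FPKM in the SCF libraries. The PBS libraries held both the highest and the lowest value, and the SCF libraries lay between them. The standard deviation was 1360 FPKM in NMDA + PBS and 341 in NMDA + SCF (n = 3). The log2 fold change was 0.22 (95% interval -0.65 to 1.09, limma unadjusted p = 0.572), and it was -0.02 without PBS replicate 3. Rom1 has 1 annotated transcript, present in both lists, with between 16903 and 26644 fragments per library. The SCF mean was 0.791 times PBS replicate 1, which shares its list, and 1.40 times the mean of PBS replicates 2 and 3, and with the list as a term the log2 fold change was -0.34. The ratio of Prph2 to Rom1, whose proteins assemble together, was 0.0583, 0.0820 and 0.134 in NMDA + PBS and 0.0696, 0.0838 and 0.0642 in NMDA + SCF. The log2 ratio differed by -0.26 (exact permutation test, two-sided p = 0.7, adjusted p = 0.8 over 3 ratios), and PBS replicate 3 stood above the other 5 libraries.

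Abca4, the retinoid transporter of the disc rim, was at 263, 304 and 433 FPKM in the PBS libraries and at 355, 297 and 285 FPKM in the SCF libraries. The PBS libraries again held both extremes. The study lists Abca4 among the genes that were higher after SCF, whereas the groups overlapped in this sum of shared transcripts. The log2 fold change was -0.07 (95% interval -0.63 to 0.49, limma unadjusted p = 0.787), and 0.14 without PBS replicate 3. The SCF mean was 1.19 times PBS replicate 1, which shares its list, and 0.848 times the mean of PBS replicates 2 and 3. With the list as a term the log2 fold change was 0.24, so the direction depended on which controls were used. All 10 annotated Abca4 transcripts were listed somewhere and 7 were in both lists. The full-length coding Abca4-201 (chr3:122044443-122180059, plus strand, 50 exons) was at 99.1, 111 and 227 FPKM in NMDA + PBS and at 120, 83.9 and 75.7 in NMDA + SCF, a log2 fold change of -0.56 with a standard error of 0.34 (unadjusted p = 0.142). The retained intron Abca4-203 at the 3′ end of the gene was at 132, 147 and 128 FPKM in NMDA + PBS and at 192, 178 and 181 in NMDA + SCF. For Abca4-203 all SCF libraries lay above all PBS libraries, with means of 136 ± 10.1 and 184 ± 7.15 FPKM (SD, n = 3) and a log2 fold change of 0.43 with a standard error of 0.17 (limma over all transcripts, unadjusted p = 0.033, adjusted p = 0.591).

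Rp1, the microtubule-binding protein of the axoneme, was at 1139, 1127 and 1724 FPKM in the PBS libraries and at 1055, 1063 and 870 FPKM in the SCF libraries. All SCF libraries lay below all PBS libraries, by a narrow margin except for PBS replicate 3. The means were 1330 ± 342 and 996 ± 109 FPKM (SD, n = 3), a ratio of 0.749, and the log2 fold change was -0.39 (95% interval -1.02 to 0.23, limma unadjusted p = 0.182, adjusted p = 0.649). It was below 0 in all 16 alternatives, from -0.61 to -0.19, the latter without PBS replicate 3 (unadjusted p = 0.365), and it was -0.20 with the transcript list as a term. Limma's voom gave -0.41 (unadjusted p = 0.0339), the only alternative at an unadjusted p of at most 0.05 among the 15 with a p. The sum came almost wholly from the coding transcript Rp1-201 (6869 bases), with between 20624 and 52375 fragments per library. A longer-spanning coding transcript of 30 exons, Rp1-203, was at 1.62, 12.1 and 7.24 FPKM in NMDA + PBS and at 1.68, 0.827 and 1.80 in NMDA + SCF, and its low value in PBS replicate 1 fell among those of the SCF libraries, as the transcript lists divide them (log2 fold change -1.46, unadjusted p = 0.0355, adjusted p = 0.591).

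**Figure D3:**
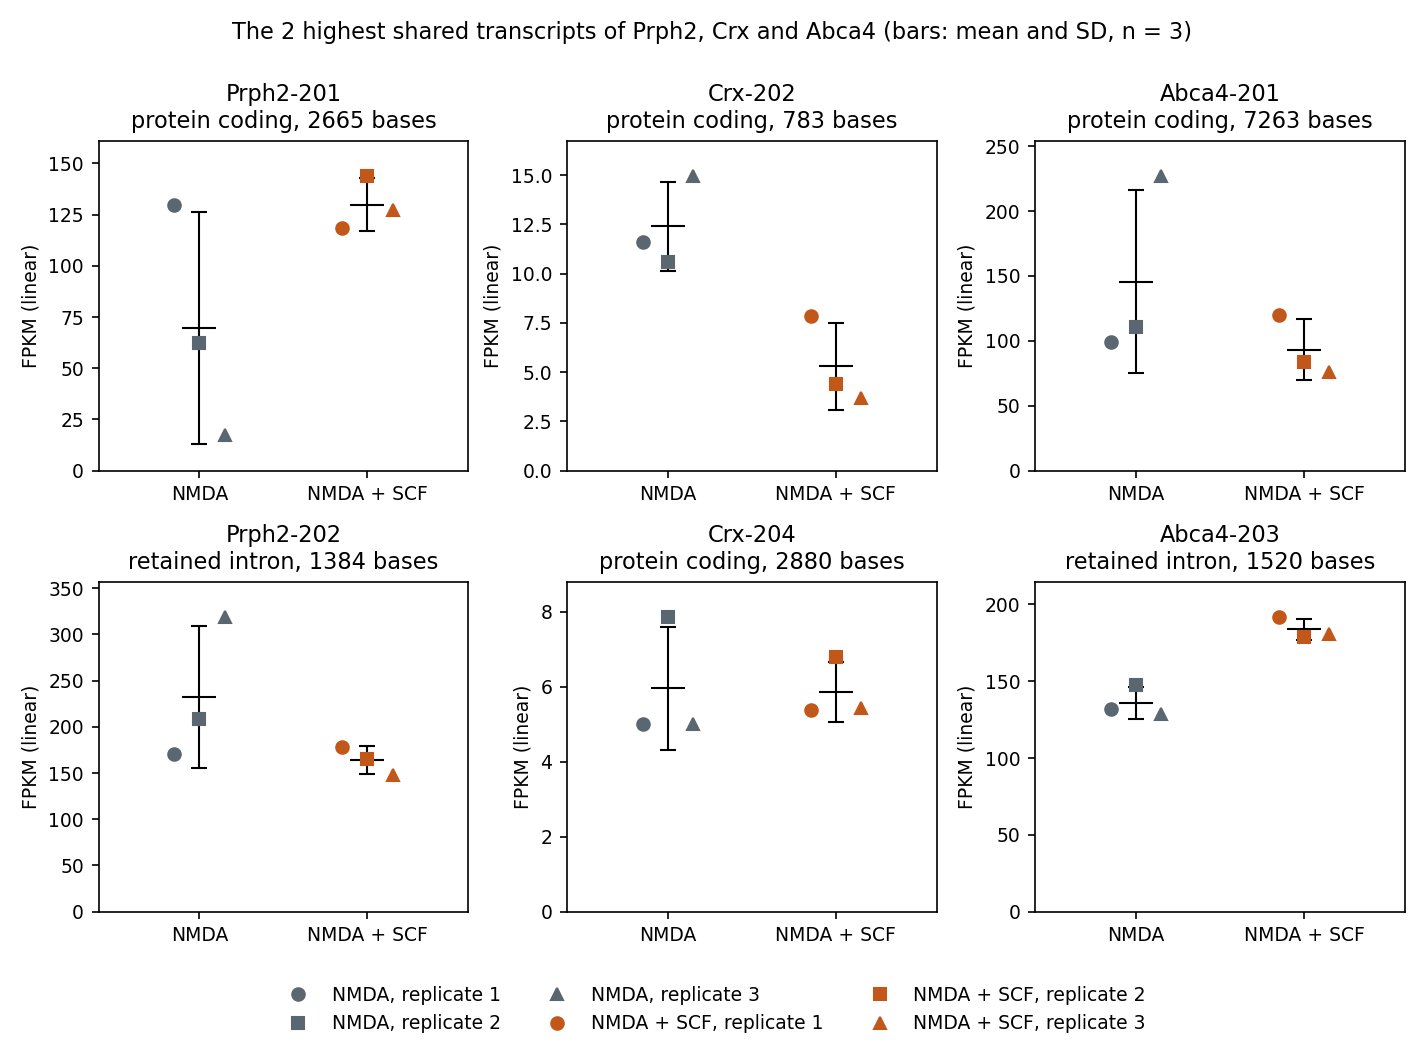
FPKM of single transcripts (linear axes from 0) of Prph2, Crx and Abca4 in NMDA + PBS (labelled NMDA, grey) and NMDA + SCF (orange), 1 point per library, with the mean and SD of 3 libraries. Prph2-201 is at 17.3 FPKM in PBS replicate 3, where Prph2-202 reaches 319, while Crx-202 and Abca4-203 separate the groups in opposite directions.

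PBS replicate 3 was the highest library for Prph2, Abca4, Rp1 and Crx and the lowest for Nrl and Rom1. Across all transcripts with a mean of at least 1 FPKM, that library lay above the 6-library mean by a median of 0.22 on the log2 scale for the 309 transcripts of at least 8000 bases and below it by 0.05 (median -0.05) for the 12260 under 2000 bases. SCF replicate 3 went the other way, with medians of -0.12 and 0.10. The transcripts of the 9 genes did not all follow this order: in PBS replicate 3 the long Rp1-201 and Abca4-201 had their highest values and the short Rom1-201 its lowest, but the short Crx-202 and Prph2-202 also had their highest there, and Nrl-206, of 4973 bases, its lowest. The part of transcript length in the results for these genes was not tested.

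At the level of transcripts, 5 of the 21 shared transcripts of the 9 genes had an unadjusted p of at most 0.05 and none passed an adjusted p of 0.05 (limma, Benjamini-Hochberg over all transcripts; 3612 of all 45261 transcripts were at an unadjusted p of at most 0.05). Nrl-206 and Abca4-203 were higher, beside 3.41% of all transcripts, and Crx-202, Rp1-203 and Abca4-207 were lower, beside 4.57%. Abca4-207 had between 1 and 7 fragments per library.

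**Figure D4:**
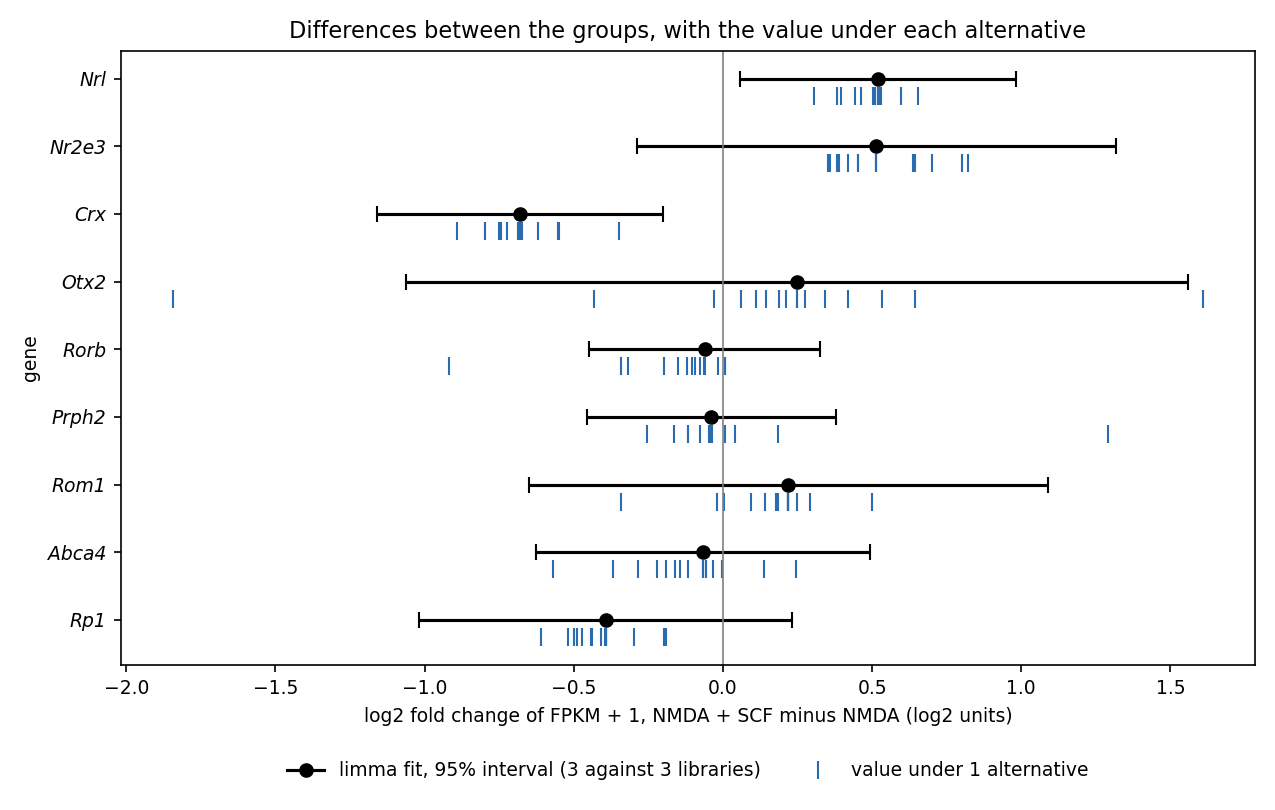
Log2 fold change of FPKM + 1 (NMDA + SCF minus NMDA + PBS, in log2 units) for the 9 genes, with black points and bars for the limma fit and its 95% interval over 3 against 3 libraries and blue ticks for the value under each alternative analysis. The intervals of Nrl (0.06 to 0.98) and Crx (-1.16 to -0.20) leave out 0 before adjustment, and the ticks of Otx2 span from -1.84 to 1.61.

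Genes of the same cells were compared in the same fit, where 4.33% of all genes were higher and 4.9% lower at an unadjusted p of at most 0.05. Of 13 other regulators of photoreceptor transcription with a value, 1 was higher and 1 lower at an unadjusted p of at most 0.05, with a median log2 fold change of -0.28. The higher one, Rax, a homeobox gene of the early eye field, was at 305, 0 and 0 FPKM in NMDA + PBS and between 374 and 383 in NMDA + SCF, so PBS replicate 1 again lay nearer to the SCF libraries than to its own group. The lower one, Rxrg, a nuclear receptor of cones, was at or below 0.414 FPKM in every library. Thrb, the thyroid hormone receptor that directs cone opsin choice, had the lowest log2 fold change among those of at least 1 FPKM, -0.83 (unadjusted p = 0.14), with 8.38, 29.1 and 33.2 FPKM in NMDA + PBS and between 7.68 and 13.8 in NMDA + SCF.

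Among 18 other proteins of the disc, outer segment and cilium, 5 were higher and 1 lower at an unadjusted p of at most 0.05, beside 4.33% and 4.9% of all genes. None of the 18 passed an adjusted p of 0.05. Their median log2 fold change was 0.27, near the 0.22 of all genes with a mean of at least 10 FPKM. Unc119, which carries acylated proteins to the outer segment, was at 97.0, 92.3 and 59.2 FPKM in NMDA + PBS and at 141, 156 and 164 in NMDA + SCF, a log2 fold change of 0.91 (unadjusted p = 0.00454, adjusted p = 0.536). Prcd, a small disc membrane protein, was at 25.3, 34.2 and 32.6 FPKM in NMDA + PBS and at 53.3, 40.3 and 41.0 in NMDA + SCF (0.53, unadjusted p = 0.031). These were among 8 of the 18 genes with all SCF libraries above all PBS libraries, beside 7.63% of all genes, and 0 of the 18 had them below. Those 8 include genes that follow the transcript lists, among them Aipl1 and Cep290. Fscn2, an actin bundler, had overlapping groups (0.68, unadjusted p = 0.0455). The remaining 3 followed the transcript lists. Aipl1, a chaperone of the rod phosphodiesterase, was at 279 FPKM in PBS replicate 1, at 7.95 and 4.03 in replicates 2 and 3 and at 343 to 394 in NMDA + SCF. Cep290, of the connecting cilium, was at 31.2 FPKM in PBS replicate 1, at 5.03 and 4.35 in replicates 2 and 3 and at 34.0 to 43.9 in NMDA + SCF. Impg2, of the matrix between photoreceptors, was at 14.7 FPKM in PBS replicate 1, at 171 and 175 in replicates 2 and 3 and at 15.2 to 18.8 in NMDA + SCF.

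Of 15 genes of rod phototransduction, 1 was higher and 1 lower, with a median log2 fold change of 0.05. All SCF libraries lay above all PBS libraries for 3 of them (7.63% of all genes) and below for 2 (6.45%). Pde6b was at 301, 283 and 267 FPKM in NMDA + PBS and at 414, 405 and 393 in NMDA + SCF, a log2 fold change of 0.51 (unadjusted p = 0.0186, adjusted p = 0.536), without overlap. Gnb1, the beta subunit of rod transducin, was at 76.2, 89.6 and 128 FPKM in NMDA + PBS and at 71.3, 58.8 and 64.2 in NMDA + SCF (-0.56, unadjusted p = 0.0402), also without overlap. Cnga1, the rod cyclic nucleotide channel, had the lowest value of the list, -1.33 (unadjusted p = 0.0715), with 227 FPKM in PBS replicate 3 and between 22.6 and 49.4 in the other 5 libraries. In the cone list 0 of 8 genes were higher and 1 was lower, Cngb3, at 0.125 FPKM in PBS replicate 1, at 22.4 and 20.2 in replicates 2 and 3 and at most 0.0620 in NMDA + SCF. Gnb3, of cone transducin, had the highest value of that list, 0.52 (unadjusted p = 0.35). Unc119, Prcd and Pde6b were named because of their p, so they are no independent measure of how rod genes as a group compare.

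In whole retina, fewer cells of a type and less RNA per cell cannot be told apart. Of the 7 bipolar markers with a value none passed an unadjusted p of 0.05 (Cabp5 0.24, Trpm1 -0.38), and none of 9 pigment epithelium markers (Ttr 1.14, Tyr -0.27) or 5 microglia markers did (C1qb 1.30, Tmem119 0.77). In each of the other retinal lists 1 gene was lower, namely Onecut1 among 10 of horizontal and amacrine cells (-0.83, unadjusted p = 0.039; Chat -0.90, Slc6a9 0.57), Slc17a6 among 7 of ganglion cells (-1.91, unadjusted p = 0.0404; Sncg 0.49) and Dkk3 among 7 of Muller glia (-6.52, unadjusted p = 0.028; Gfap 0.88). Slc17a6 and Dkk3 followed the transcript lists, Dkk3 being at 980 and 1007 FPKM in PBS replicates 2 and 3 and at most 0.262 in the other 4 libraries. Of 10 lens markers 9 were higher at an unadjusted p of at most 0.05, and their summed level was between 26.6 and 341 FPKM in NMDA + PBS and between 670 and 11900 in NMDA + SCF. Cryaa, a lens crystallin named after its values were seen, was at 0, 0 and 2.15 FPKM in the PBS libraries. In the SCF libraries Cryaa was at 81.0, 0.866 and 101 FPKM, so the groups overlapped. Within the groups the lens sum and Nrl did not keep 1 order. SCF replicate 2 was lowest in both, but SCF replicate 3 had the highest lens sum and SCF replicate 1 the highest Nrl value. PBS replicate 2 was highest in both, but PBS replicate 1 had the lowest lens sum and PBS replicate 3 the lowest Nrl value. The part of lens RNA in the results for the 9 genes was not tested.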

How the data were processed

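From mRNA selected by oligo (dT) and read on a HiSeq instrument (Illumina), the authors deposited FPKM per transcript for each library, and a table of library totals with the percent of bases at a quality of 30 or more (92.9 to 94.3%). The aligner and counter are not given in the sources used here. The submitters' processing notes name mm9, but 98.2% of the transcripts found in GENCODE M21 lay at its GRCm38 positions, so coordinates are on GRCm38. Value times length gave whole fragments (within 0.05, or the rounding of the file) for 98.4 to 98.5% of values.

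The 46933 Ensembl transcripts common to both lists gave 1 FPKM sum per gene, and log2(FPKM + 1) was fitted on condition with limma 3.58.1 in R 4.3.3 (variance trend, Benjamini-Hochberg over all genes). The pseudocount understates changes of low genes. The fit was tested on simulated data of 24442 genes, of which 200 were changed: limma called 188 at an adjusted p of 0.05, of which 171 were changed. The planted changes were larger than the gene-level changes of the members. They lay in well-counted genes only, and no effect of the transcript lists was simulated. Whether the fit would find changes as small as those of the members was therefore not tested. The study's stricter thresholds were not simulated. Every simulated gene was drawn with the same dispersion (spread beyond counting noise). In the PBS libraries the SD of the members differed, from 9.10% of the mean for Crx to 66.6% for Otx2. Context genes were named by rule: from each list the highest and lowest log2 fold change among genes with a mean of at least 1 FPKM and every gene at an unadjusted p of at most 0.05. A further gene that the rule names is not reported here. From the lens list the rule took only the summed level. Members and lists were chosen with earlier results of these data known. The alternatives were upper quartile and median-of-ratios scaling, a pseudocount of 0.1, a minimum mean of 1 FPKM, all listed transcripts, voom, a replicate block, the transcript list as a term, removal of mitochondrial genes, each library left out and, added after the data were seen, coding transcripts only. With the list as a term only PBS replicate 1 is a control, so no p is used. Plots were made with Python 3.11.15 and matplotlib 3.10.9.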

Additional observations from a re-analysis of the deposited data

Results flagged for a closer look

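A transcript of Abca4 outside the gene sums, Abca4-210 (a processed transcript of 765 bases), was in list A only and was higher in the SCF libraries than in the control library of that list. It was at 58.7 FPKM in PBS replicate 1 and at 79.4, 75.1 and 62.7 FPKM in SCF replicates 1, 2 and 3, a ratio of 1.23 of the SCF mean to the control. With 1 control library there is no test. Groups of 3 libraries are too small for the outlier test used here.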

How the results depend on the processing

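The number of genes called was 0 in 15 of 16 alternatives, among them an adjusted p of 0.05 at any fold change, and the fits that left out 1 library called between 0 and 191 genes, the latter without PBS replicate 1, where list and group coincide. The 2 members at an unadjusted p of at most 0.05 became 1 under upper quartile scaling, median-of-ratios scaling, removal of mitochondrial genes, coding transcripts only (1 of 6 genes with a coding value) and the replicate block, and between 0 and 3 when a library was left out. The 0 came without SCF replicate 3, and 1 without PBS replicate 3 or SCF replicate 1. With voom the number stayed at 2, but the members were Nrl and Rp1 in place of Nrl and Crx. Coding transcripts only gave 2 members above 0 in place of 4, the fits without a library 3 to 6, and the number without overlap was 2 to 5 (5 without PBS replicate 1). The median of the members, -0.04, ranged from -0.21 (coding transcripts only) to 0.18 (voom), and was above 0 also with a minimum of 1 FPKM (0.09) and without PBS replicate 3, SCF replicate 2 or SCF replicate 3 (0.0395, 0.0068 and 0.0063). Of the members' transcripts, 1 was at that p with the replicate block and between 1 and 9 without a library (9 without PBS replicate 1, 3 without PBS replicate 3, 1 without each SCF library in turn). The shares of all genes and transcripts under these alternatives are not given here, and groups with fewer libraries separate more easily. These counts therefore have no background beside them and show only how the numbers move.

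Nrl, Nr2e3, Crx and Rp1 kept their direction in every alternative. Otx2 reversed to -1.84 with all listed transcripts and -0.031 with coding transcripts only, Prph2 to 1.29 with coding transcripts only and 0.18 with voom, and with the list as a term Rom1 to -0.34 and Abca4 to 0.24. Without a library, Otx2 ranged from -0.43 to 0.64, Prph2 from -0.12 to 0.0395, Rom1 from -0.0199 to 0.50, Abca4 from -0.22 to 0.14 and Rorb from -0.20 to 0.0068. The log2 ratio of Crx to Otx2 reversed to 1.08 with all listed transcripts, and without a library the difference ranged from -0.54 to 0.0595 for Prph2 to Rom1, from -0.36 to 0.0728 for Nrl to Nr2e3 and from -1.55 (without PBS replicate 2) to -0.32 (without PBS replicate 1) for Crx to Otx2. The cause of these moves was not tested. Replicate numbers did not pair the libraries: same-numbered libraries correlated at -0.05, -0.05 and -0.08 in their deviations from the group means, and with the replicate block Nrl stayed at 0.52 (limma, unadjusted p = 0.0817) and Crx at -0.68 (unadjusted p = 0.0431).

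A size of 3 libraries a group, 5 to 123 fragments per library for Crx and Otx2, 1 to 4 for Rorb, and a control group split over 2 transcript lists limit these comparisons. Values for genes whose coding transcripts were in 1 list or neither describe the listed transcripts only.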
